A study of Mus musculus with 46 samples.

Results

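Hippocampal microglia that lacked Dicer were compared with control hippocampal microglia, at steady state and after an inflammatory challenge, in 9 of the 46 RNA sequencing libraries of the series. The libraries were chosen by their labels and not by their values: all 5 Dicer-deficient and all 4 control libraries of the hippocampal table. Dicer-deficient mice were Cx3cr1CreER:Dicerfl/- and control mice Cx3cr1CreER:Dicer+/-, so by the labels every mouse carried the Cre driver and 1 deleted Dicer allele, and the controls differ from them in the other allele only. At steady state there were 2 control libraries (numbers 1 and 2) and 3 Dicer-deficient libraries (4, 5 and 6). A further 2 control libraries (15 and 16) and 2 Dicer-deficient libraries (18 and 20) were taken 6 h after an intraperitoneal injection of 1 mg/kg lipopolysaccharide (LPS, a bacterial cell wall component that sets off innate immune signalling). All mice were 10 to 12 weeks old, and the cells were sorted as CD45intCD11b+F4/80+Ly6C-Ly6G-. CreER acts only once tamoxifen is given, in cells that express Cx3cr1, and the schedule is not given in the sources used here. Whether each library came from a separate mouse is not stated either, so a p-value reflects the spread among libraries only, which may in part be technical.

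Dicer is the enzyme that cuts precursor hairpins into mature microRNAs, short RNAs that pair with messenger RNAs through their bases 2 to 8, the seed, and lower the stability or translation of the paired messenger. Cells that lose Dicer keep the microRNAs they already have until these decay, and targets can then rise. Microglia are the resident macrophages of the brain. In culture and in mice, microRNAs such as miR-155 and miR-146a are known to tune how strongly macrophages respond to LPS.

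Mature sequences of 4 microRNAs known from macrophages or brain are printed here from RefSeq (GRCm38.p6), because their seeds define the target matches counted further on. The capitals mark the seed.
let-7a-5p: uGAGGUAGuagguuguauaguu
miR-155-5p: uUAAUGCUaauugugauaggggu
miR-146a-5p: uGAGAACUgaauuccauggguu
miR-142a-3p: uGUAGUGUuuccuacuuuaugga
The copies shown lie at chr13:48538239-48538260 (minus strand), chr16:84714143-84714165 (plus), chr11:43374435-43374456 (minus) and chr11:87756903-87756925 (plus). No 2 of these share a seed, and microRNAs themselves were not measured in these libraries.

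The values are the authors' normalized read counts per gene, called values here, with 1817611 to 4143142 reads per library. Microglial markers were high in all 9 libraries: Csf1r, the receptor for colony stimulating factor, stood between 19520 and 31780, and Tmem119 between 3960 and 11120. Cx3cr1, the gene whose regulatory region drives the Cre, was 688 in control library 1 and 1523 to 7139 in the other 8. Xist, transcribed from the inactive X chromosome, and Y-linked genes were not balanced between the groups. Xist was 1430 in control library 1 and at most 9.72 in control library 2 and the 4 LPS libraries. All 3 Dicer-deficient steady-state libraries held both, with Xist at 676, 693 and 622 and summed Y-linked values of 280, 298 and 242. Whether these 3 libraries hold cells of several pooled mice is not stated. With Xist as a covariate 56 genes passed the genotype test in place of 125, and 53 of these were among the 125. T-cell marker Cd3e was at 0 in all 9 libraries, neuronal Snap25 was at most 15.5 and endothelial Cldn5 at most 0.686. Summed over whole marker lists, the 9 libraries held 1.57 to 178 for neurons, 203 to 453 for oligodendrocytes and 579 to 1602 for astrocytes. Vascular cells had 847 to 1497, of which Bsg, a gene that other cells use too, made up 773 to 1428. Border-associated macrophage markers summed to 1586 and 1584 in steady-state controls against 1808, 1993 and 1979 without Dicer. After LPS the sums were 1654 and 1830 against 1049 and 812. Erythroid markers summed to 61.7 and 65.7 against 259, 360 and 397, and after LPS to 3220 and 230 against 110 and 1249. In limma 0 of 12 border-associated macrophage genes and 0 of 7 erythroid genes passed. The part of such RNA in the genotype differences was not tested.

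Dicer1, the targeted gene, did not separate the groups. Its value was 92.6 and 43.0 in steady-state controls, 18, 33 and 60.8 in the Dicer-deficient libraries, 60.4 and 110 in controls after LPS, and 80.5 and 93.5 in the Dicer-deficient libraries after LPS. The groups overlapped after LPS and at steady state. The log2 difference was -0.46 ± 0.50 (SE, adjusted p = 0.758, limma), with a 95% interval from -1.52 to 0.60. Reads from a messenger that lost only internal exons still count for the gene, so this value does not check the deletion.

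A gene is said to have risen or fallen when its Benjamini-Hochberg adjusted p from limma was under 0.05 in a model of log2(value + 1) with LPS as a covariate. Such genes are named called, and differences are Dicer-deficient minus control on that log2 scale, ± SE. Of 11258 genes tested, 82 rose (0.728%) and 43 fell (0.382%), together 1.11%. Counts of called genes within a list, given below, are to be read beside these shares. Of these, 69 and 39 differed at least 2-fold. The median difference of all tested genes was -0.09, and 1439 genes had an unadjusted p under 0.05. All 82 genes that rose, and 42 of the 43 that fell, had no overlap between genotypes within steady state nor within LPS. The shares of all tested genes in those directions were 3.64% and 5.05%. The calls were made on these same libraries and favour such a lack of overlap by their construction. Fewer libraries gave fewer calls: 54 to 109 genes passed when 1 library was left out, with the fewest without control library 2 (54) and control library 1 (59), then without Dicer-deficient library 20 (75) and Dicer-deficient library 5 (82). In all 9 of these refits, 38 of the 125 genes passed.

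Among the increases were genes of the cell surface and the extracellular matrix. Chst2, which adds sulfate to N-acetylglucosamine in glycans, had values of 26.1 and 34.4 in steady-state controls against 321, 419 and 348 in Dicer-deficient libraries. After LPS it was 1.63 and 11.4 in controls against 211 and 284. Chst2 was thus lowest in LPS controls and at 211 or more in all 5 Dicer-deficient libraries, a log2 difference of 4.40 ± 0.51 (adjusted p = 0.000616). Siglecf, an inhibitory receptor for sialic acids, was 182 and 67.3 in controls, 1270, 1345 and 1370 in Dicer-deficient libraries, 58.7 and 46.3 in LPS controls and 269 and 414 in Dicer-deficient libraries after LPS. The Dicer-deficient libraries were all above the controls, and Siglecf rose by 3.16 ± 0.30 (adjusted p = 0.000206).

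Itgb3, the beta 3 chain of integrins that bind fibronectin and vitronectin, had values of 127 and 177 against 347, 700 and 578 at steady state, and 40.8 and 94.6 against 1251 and 1268 after LPS. Its difference was 2.94 ± 0.42 over both conditions (adjusted p = 0.00226). Nid2, a nidogen of basement membranes, stood at 109 and 45.4 against 578, 481 and 494, and after LPS at 45.7 and 24.1 against 158 and 263. Nid2 rose by 2.73 ± 0.33 (adjusted p = 0.000662). Upk1b, a tetraspanin, had lower values after LPS in both genotypes and higher values without Dicer in each condition: 795 and 532 against 2683, 2356 and 2104, then 25.3 and 63.5 against 385 and 543 (2.60 ± 0.32, adjusted p = 0.000963). Neither Itgb3, Nid2 nor Upk1b overlapped between genotypes within a condition. Sparc, a secreted matrix protein made by microglia at high levels, was 15936 and 12924 against 29463, 27296 and 29053, and 12273 and 7380 against 18907 and 26268 (1.10 ± 0.20, adjusted p = 0.0133).

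**Figure D1:**
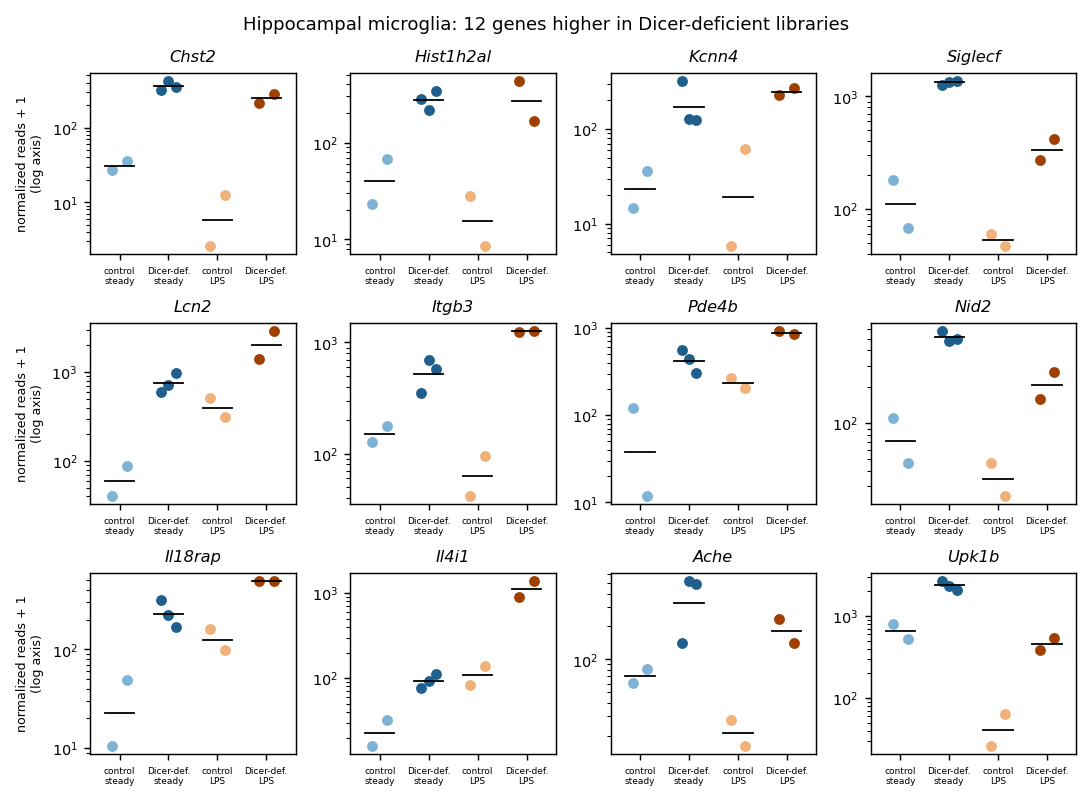
Value + 1 (normalized reads, log axis) of the 12 named genes with the highest difference in each of the 9 hippocampal libraries; points are libraries and bars are geometric means of value + 1. Within steady state and within LPS every Dicer-deficient library lies above every control library, as the naming rule required.

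Receptors, a channel and enzymes of signalling rose as well. Il18rap, the accessory chain of the interleukin-18 receptor, had values of 9.6 and 47.7 against 312, 221 and 166, and of 159 and 97.1 against 491 and 491 after LPS (2.71 ± 0.43, adjusted p = 0.00593). Kcnn4, a calcium-activated potassium channel, was 13.7 and 35.2 against 320, 125 and 123, and 4.89 and 60.9 against 225 and 272 (3.26 ± 0.61, adjusted p = 0.0146). Kcnn4 no longer passed without control library 1 or without Dicer-deficient library 20. Pde4b, a phosphodiesterase that breaks down cyclic AMP, stood at 119 and 11 against 559, 437 and 301, and at 263 and 203 against 920 and 845 (2.77 ± 0.51, adjusted p = 0.0130). The low value of Pde4b in control library 2 widened its spread.

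Il4i1, a secreted L-amino acid oxidase, showed its largest values after LPS without Dicer: 900 and 1385, against 82.4 and 138 in LPS controls, and 75.0, 91.6 and 110 against 15.1 and 31.3 at steady state. It rose by 2.63 ± 0.37 (adjusted p = 0.00215). The gene model Gm21948 carries almost the same values as Il4i1 (900 and 904 in library 18), so reads cannot be assigned to either alone. Ache, the esterase that hydrolyses acetylcholine, was 60.3 and 79.8 against 140, 519 and 485, and 26.9 and 15.2 against 230 and 141 (2.62 ± 0.42, adjusted p = 0.00664).

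Further cytokine and complement receptors were among the 82 genes and are named here after their values were seen. Il1r2, the decoy receptor for interleukin-1, rose by 1.87 ± 0.38 and reached 1644 and 1088 after LPS without Dicer, against 227 and 336 in LPS controls. Csf2ra, the alpha chain of the GM-CSF receptor, rose by 1.06 ± 0.19, and Ifngr2, a chain of the interferon-gamma receptor, by 0.89 ± 0.17. C5ar2, a receptor for complement C5a, was 162 and 438 against 957, 812 and 832, and 257 and 55.2 against 715 and 322 after LPS (1.83 ± 0.39, adjusted p = 0.0332). It was the only 1 of 20 tested complement genes that passed, beside 1.11% of all tested genes. Cd34, a sialomucin, rose from 1509 and 996 to 3643, 3486 and 2765, and after LPS from 804 and 666 to 1581 and 1762 (1.31 ± 0.17, adjusted p = 0.00132).

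The increases included Lcn2, Ifi30, Cst7 and Socs3. Lcn2, a protein that binds bacterial siderophores, was 39.8 and 87.7 in steady-state controls and 604, 708 and 970 without Dicer. After LPS it was 516 and 308 in controls and 1392 and 2909 without Dicer, the highest 2 of the 9 libraries. Lcn2 rose by 3.04 ± 0.33 (adjusted p = 0.000369). Neutrophils also make Lcn2. Of their markers S100a8, S100a9, Ngp and Camp, each was higher in all 3 Dicer-deficient libraries than in both controls at steady state, and none separated the genotypes after LPS. S100a8 was 104 and 498 in controls and 2065, 1564 and 1533 without Dicer, but 217 and 1.90 in LPS controls and 18 and 5.38 in the LPS libraries where Lcn2 was highest. Cxcr2, a chemokine receptor of neutrophils on the same list, separated the genotypes after LPS only. It was 0 and 0 against 0, 0 and 30 at steady state, and 4.08 and 24.8 in LPS controls against 262 and 131 without Dicer (2.73 ± 1.11 over both conditions, adjusted p = 0.306). Over the whole neutrophil list the summed value was 1595 and 3358 in steady-state controls, 9151 to 9446 without Dicer, 878 and 2382 in LPS controls and 2396 and 3578 without Dicer after LPS. Lcn2 was the 1 of 14 tested neutrophil genes that passed, and it kept its call with the mean of that list, Lcn2 included, as a covariate. The part of neutrophil RNA in the Lcn2 difference after LPS was not tested. All 10 tested monocyte genes had positive differences and 0 passed in limma or edgeR (2 in DESeq2, 3 at an unadjusted p under 0.05). Their summed value was 69.2 to 172 in controls and 312 to 1372 without Dicer. Among them, Ccr2 was 39.8 and 0.783 against 48.6, 124 and 130 at steady state, and 8.16 and 0 against 0 and 2.02 after LPS. Fn1 and Plac8 lay higher after LPS instead: Fn1 was 17.1 and 37.4 in LPS controls against 247 and 425, and Plac8 5.71 and 4.44 against 19.4 and 59.2. In total brain microglia 6 of 13 tested monocyte genes were called higher (Ccr2, F10, Fn1, Hp, Ly6c2 and Plac8) and 0 lower, beside 4.98% of all genes tested there. With the mean of the neutrophil list as a covariate 121 genes passed, 97 of them among the 125. This covariate was built from the neutrophil list alone, whose median difference was 2.78 at steady state and -2.23 after LPS. The part of neutrophil or monocyte RNA in the other increases was not tested.

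Ifi30, the lysosomal thiol reductase that prepares antigens for presentation, was 1054 and 610 against 3912, 3957 and 4659, and 1644 and 1967 against 4799 and 7201 after LPS. All Dicer-deficient libraries exceeded all controls, and Ifi30 rose by 2.07 ± 0.21 (adjusted p = 0.000213). Cst7, an inhibitor of cathepsins, was 90.5 and 39.1 against 356, 252 and 376, and 137 and 185 against 600 and 610 (2.19 ± 0.28, adjusted p = 0.00116). Socs3, which restrains cytokine signalling through STAT3, was 191 and 175 against 632, 670 and 598, and after LPS 2119 and 2794 against 3951 and 5123 (1.38 ± 0.20, adjusted p = 0.00226). Socs3 had its lowest values in steady-state controls and its highest after LPS without Dicer.

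Of 26 tested targets of p53, a transcription factor that responds to DNA damage, 2 rose, 0 fell and 10 had a positive difference. Of all tested genes 0.728% rose and 0.382% fell. Perp, a membrane protein linked to cell death, was 7.54 and 1.57 against 99.4, 341 and 425, and 5.71 and 0.635 against 6.94 and 72.0 after LPS (4.41 ± 0.91, adjusted p = 0.0280). Pmaip1, which encodes the BH3-only protein Noxa, was 2.06 and 0.783 against 86.7, 43.0 and 87.5, and 1.63 and 6.98 against 50 and 24.2 (4.02 ± 0.78, adjusted p = 0.0187). Perp was separated widely at steady state, and after LPS its lower Dicer-deficient value was close to a control. For genes as low as these, adding 1 before the logarithm shrinks the fold. The list median was -0.12, near that of all genes.

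Histone genes of the Hist clusters are a list added after values were seen. Of 43 tested, 4 rose (Hist1h2al, Hist1h2bc, Hist2h2aa1 and Hist2h2aa2) and 39 had a positive difference, with a median of 0.91. In total brain 3 of these genes were called higher and 3 lower, beside 4.98% and 8.34% of all genes tested there. Hist1h2al was not called in total brain over both conditions (0.94, adjusted p = 0.331, limma). There it was 17, 55.5 and 42.5 in steady-state controls against 7, 31.4 and 17.4 without Dicer. After LPS it was 25.8, 6.9, 5.9 and 5.9 in controls against 124, 60.2, 69.2 and 15.3. Hist1h2bc, a histone H2B gene, was 311 and 175 against 1283, 1018 and 928, and 45.7 and 29.8 against 303 and 155 (2.34 ± 0.27, adjusted p = 0.000616). Hist1h2al was 21.9 and 67.3 against 278, 214 and 337, and 26.9 and 7.62 against 432 and 167 (3.39 ± 0.49, adjusted p = 0.00226). Near-identical copies can share reads, so a single histone gene is uncertain. Libraries were captured with oligo dT, which favours messengers with a poly(A) tail, and most histone messengers lack one. Of 21 genes of mitosis 0 passed in limma, edgeR or DESeq2 (3 at an unadjusted p under 0.05), and 6 had a positive difference. Of 28 genes of DNA replication, 1 passed, Prim2 of the primase (2.14 ± 0.37, adjusted p = 0.01).

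Surface receptors and a chemokine were among the decreases. Lag3, an inhibitory receptor used as a marker of resting microglia, was 792 and 1111 in controls against 289, 249 and 269 without Dicer, and 723 and 684 against 70.8 and 152 after LPS. The genotypes did not overlap across all 9 libraries, and Lag3 fell by 2.23 ± 0.26 (adjusted p = 0.000616). Ccl6, a chemokine, stood at 615 and 523 against 101, 176 and 180, and at 201 and 188 against 26.4 and 55.2 (-2.11 ± 0.30, adjusted p = 0.00221). Fcrls, an Fc receptor-like scavenger receptor that marks microglia, was 4272 and 3333 against 1673, 1939 and 1694, and 2848 and 4309 against 1091 and 895 (-1.43 ± 0.19, adjusted p = 0.00145). Slamf9, a receptor of the SLAM family, was 340 and 354 against 89.8, 160 and 226, and 153 and 168 against 1.39 and 8.75 (-2.97 ± 0.66, adjusted p = 0.0397). Slamf9 passed in 1 of the 9 refits without a library. Cd22, a Siglec, was 119 and 47.0 against 0, 18.7 and 4.86, and 47.3 and 74.9 against 0 and 0 after LPS (-4.85 ± 0.95, adjusted p = 0.0194), so within its family of 8 tested genes 1 rose and 1 fell.

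**Figure D2:**
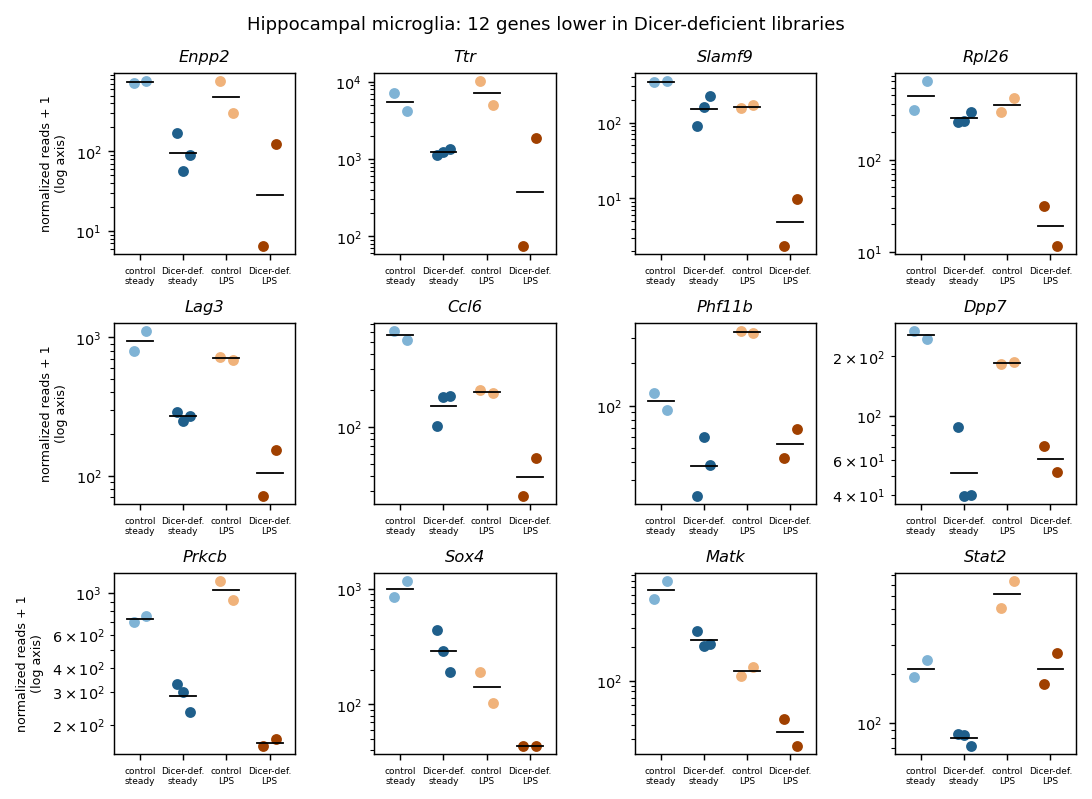
Value + 1 (normalized reads, log axis) of the 12 named genes with the lowest difference in each of the 9 hippocampal libraries; points are libraries and bars are geometric means of value + 1. Every Dicer-deficient library lies below every control library of its own condition, as the naming rule required, and Ttr spans 75.0 to 1874 between the 2 Dicer-deficient libraries after LPS.

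Signalling genes and regulators fell as well. Prkcb, protein kinase C beta, was 701 and 751 against 327, 297 and 233, and 1158 and 923 against 154 and 166 after LPS, with no overlap over all 9 libraries (-1.96 ± 0.25, adjusted p = 0.00122). It was the 1 member called of 11 protein kinase C genes tested. Matk, a kinase that inhibits Src-family kinases, was 540 and 794 against 281, 204 and 215, and 110 and 132 against 44.4 and 24.9 (-1.65 ± 0.28, adjusted p = 0.00855). Sox4, a transcription factor, was 841 and 1164 against 440, 290 and 189, and 190 and 102 against 43.0 and 43.1 (-1.73 ± 0.29, adjusted p = 0.00800). Stat2, which carries type I interferon signals to the nucleus, was 189 and 241 against 84.6, 82.8 and 71.3, and 506 and 736 against 171 and 267 (-1.46 ± 0.25, adjusted p = 0.00966). Sox4, Matk and Stat2 each lost the call without control library 2.

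Stat2 was the 1 of 42 interferon genes that passed, beside 1.11% of all tested genes. The list median was -0.48 over both conditions, 0.15 at steady state and -1.44 after LPS, beside -0.09, -0.09 and -0.06 for all genes, and 32 of the 42 had a negative difference (29 to 31 under 3 other scalings). Mx1, an antiviral GTPase, was 229 and 328 in LPS controls and 11.1 and 100 without Dicer, and it did not pass (-3 ± 1.04, adjusted p = 0.211). Ifi27l2a was 146 and 225 against 2.78 and 48.4 after LPS (-2.21 ± 0.74 over both conditions, adjusted p = 0.193). In both genes library 18 held the lowest value after LPS. In total brain, over both conditions and with all libraries, 1 gene of this list was called higher and 0 lower. Of all genes tested there, 4.98% and 8.34% were called. The list was not counted after LPS alone in total brain. Stat2 was not called there with all libraries (-0.59, adjusted p = 0.125, limma) nor in adult microglia at steady state (-0.57, adjusted p = 0.215, limma). Without total brain LPS control library 33, taken up further on, Stat2 was called lower there (-0.78, adjusted p = 0.0184, limma). The whole interferon list was not recounted without that library.

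Lysosomal proteins fell and rose in equal number, 2 and 2 of 38 tested, beside 0.382% and 0.728% of all tested genes. Ctsc, which activates granule serine proteases, fell by 1.07 ± 0.18 (adjusted p = 0.00753), and Psap, the precursor of saposins, fell by 1.02 ± 0.20 (adjusted p = 0.0181). Ctsf rose by 0.88 ± 0.17 (adjusted p = 0.0168) and Ctsl by 0.88 ± 0.19 (adjusted p = 0.0306), both cysteine cathepsins. Dpp7, a dipeptidase of intracellular vesicles that is not on that list, was 268 and 243 against 86.7, 38.6 and 38.9, and 183 and 187 against 69.4 and 51.1 (-2.00 ± 0.35, adjusted p = 0.0110), and it lost the call without either steady-state control. Timp2, an inhibitor of matrix metalloproteases, was 2004 and 2040 in controls against 1003, 974 and 1005 at steady state, and 833 and 974 against 323 and 290 after LPS (-1.26 ± 0.17, adjusted p = 0.00132). In the antigen presentation list Ifi30 rose and H2-DMa, which helps load peptides on MHC class II, fell by 1.07 ± 0.22 (adjusted p = 0.0237), the 2 of 14 genes called, while 0 of 24 MHC class I genes passed in limma, edgeR or DESeq2 (2 at an unadjusted p under 0.05).

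Abca1 and Scarb1, which move cholesterol across the cell membrane, rose by 1.20 ± 0.25 (adjusted p = 0.0300) and 1.87 ± 0.40 (adjusted p = 0.0306), the 2 of 24 lipoprotein and cholesterol genes called. Ldhb, a lactate dehydrogenase chain, was the 1 of 25 glycolysis genes that rose (0.92 ± 0.19, adjusted p = 0.0294). Markers of resting microglia showed no common direction: 2 rose (Sparc and Gpr84), 2 fell (Lag3 and Fcrls), and the other 28 of 32 did not pass. Of all tested genes 1.11% passed. Among genes raised in disease-associated microglia, 2 rose (Cst7 and Ctsl), 2 fell (Ccl6 and Timp2), and 21 of 25 did not pass. In the cytokine list Ccl6 and Ccl24 fell of 31 tested, and Ccl24 was 0 in all 5 Dicer-deficient libraries and 5.08 to 31.3 in controls. Of 31 genes of the NF-kB and Toll-like receptor pathway, 0 passed in limma or edgeR, with 2 in DESeq2 and 8 at an unadjusted p under 0.05. The same tools called 0 of 25 genes of the microRNA machinery (1 in DESeq2, 1 unadjusted) and 0 of 20 genes of serine synthesis and the Atf4 response (2 in DESeq2, 7 unadjusted). A list of targets known for miR-155 and miR-146a had 0 of 29 called (2 in DESeq2, 4 unadjusted).

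Ribosomal protein genes leaned lower, with 61 of 67 negative (58 to 61 under 3 other scalings) and a median of -0.42, but only Rpl26 passed. Rpl26 was 340 and 707 against 253, 258 and 329 at steady state, and 327 and 468 against 30.5 and 10.8 after LPS (-2.42 ± 0.55, adjusted p = 0.0459). It passed in 2 of the 9 refits without a library, and its row is identical to that of the gene model Gm15772. In total brain 31 of 66 tested were called lower, beside 8.34% of all genes tested there.

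Enpp2, the enzyme autotaxin, was 714 and 765 against 171, 55.4 and 88.3, and 757 and 300 against 5.55 and 121 after LPS (-3.47 ± 0.64, adjusted p = 0.0133). Ttr, the thyroxine carrier transthyretin, was 7283 and 4196 against 1144, 1245 and 1365, and 10278 and 4947 against 75.0 and 1874 (-3.10 ± 0.66, adjusted p = 0.0306). Ttr passed in 3 of the 9 refits and Enpp2 in 7. Both are abundant in choroid plexus epithelium, which lies next to the hippocampus. The summed value of 13 choroid plexus markers, a list added after values were seen, was 5256 to 11290 in the 4 controls. It was 81.9 to 2073 in the 5 Dicer-deficient libraries. Ttr and Enpp2 are on this list, and Ttr alone made up 4196 to 10278 and 75.0 to 1874 of the sum. The sum therefore largely repeats Ttr and is no separate measure. Of the 10 tested genes of the list, 9 were negative. Clu, an astrocyte and choroid plexus transcript, fell by 2.32 ± 0.48 (adjusted p = 0.0278), while the defining astrocyte markers Aldoc and Gja1 were at most 8.75 and 1.35. The part of such RNA in these decreases was not tested. In bulk libraries fewer cells of a type and less RNA per cell cannot be told apart.

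In 7 of the 43 genes that fell, all 5 Dicer-deficient libraries were at 0, with control means of 14.7 to 27.2, so their fitted differences are not a measured fold.

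The size of the difference was next compared between conditions. At steady state alone 30 genes passed (0.266%), 23 higher and 7 lower, and after LPS alone 51 (0.453%), 30 higher and 21 lower, with the spread shared over the 4 groups. All 125 genes had the same sign in both conditions, which the fit over both conditions favours by its construction. The difference between conditions was called for 2 genes of 11258 in limma, and 594 had an unadjusted p under 0.05. Apoe, the main lipid carrier of the brain, was 7099 and 7125 in steady-state controls and 7449, 9316 and 10009 without Dicer. After LPS Apoe was 1756 and 2169 in controls and 97.2 and 186 without Dicer. Apoe was thus far lower without Dicer after LPS, while at steady state the 3 Dicer-deficient libraries lay slightly above the controls without a call (-3.85 after LPS against 0.32 at steady state, an interaction of -4.16 ± 0.38, adjusted p = 0.000371). Rps2, a protein of the small ribosomal subunit, was 191 and 156 against 117, 199 and 189 at steady state, and 419 and 670 against 15.3 and 20.2 after LPS (interaction -4.77 ± 0.61, adjusted p = 0.0109).

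**Figure D3:**
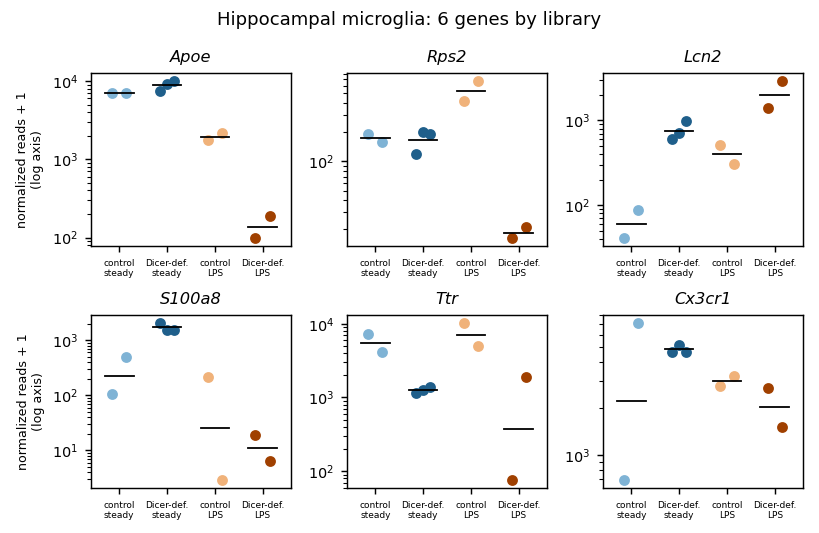
Value + 1 (normalized reads, log axis) of 6 genes in each of the 9 hippocampal libraries; points are libraries and bars are geometric means of value + 1. After LPS Apoe and Rps2 are lower in both Dicer-deficient libraries, while at steady state Apoe lies slightly higher without Dicer and Rps2 overlaps; Lcn2 is highest after LPS without Dicer where S100a8 is 18 and 5.38, Ttr is lower in all Dicer-deficient libraries, and Cx3cr1 is lowest in control library 1.

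**Figure D4:**
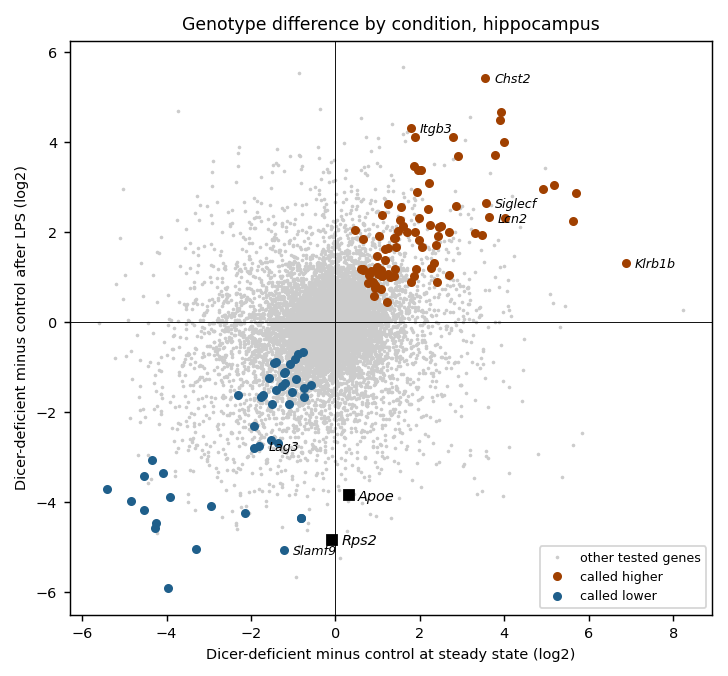
Log2 difference, Dicer-deficient minus control, at steady state (horizontal axis) and after LPS (vertical axis) for the 11258 tested genes; each point is a gene, coloured where it was called over both conditions. Called genes lie in the lower left and upper right by construction of the fit, and Apoe and Rps2 (squares) lie near 0 at steady state and at -3.85 and -4.84 after LPS.

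Within the 125 genes the balance between conditions varied. Itgb3 differed by 1.79 at steady state and 4.32 after LPS, and Klrb1b, a lectin-like receptor, by 6.87 and 1.32. Klrb1b was 0 and 2.35 in steady-state controls and 193, 224 and 223 without Dicer, and after LPS 3.26 and 18.4 against 19.4 and 24.2. Neither gene was called for a difference between conditions in limma. Steady-state and LPS differences of all 11258 genes, from separate libraries, had a Pearson r of 0.213 across genes, which are not independent replicates.

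The same genes were then read in 2 other tables of the series, each normalized on its own, so no test was made across tables. Total brain microglia (7 Dicer-deficient and 7 control libraries, with the genotypes, age, gate and LPS treatment of the hippocampal mice) gave 595 genes higher (4.98%) and 996 lower (8.34%) of 11949. The LPS control library 33 of total brain stood apart from the other 3. Its values of the LPS-responsive genes Socs3 (457), Mt2 (53.5) and Ier3 (205) were below 2219 to 3126, 1337 to 2235 and 1782 to 2067 in the others, and its Sox4 (699) was above their 99.2 to 220. Its Lcn2 value of 640, in contrast, was the highest of the 4. Without library 33, 664 genes were called higher and 1004 lower. On recovered reads with TMM scaling the share of higher calls there was 52.5% in place of 37.4%. Adult microglia at steady state (3 against 4, of the same age) gave 348 higher (3.15%) and 221 lower (2%) of 11045. The series text prints 1 and the same genotype for both adult groups, so these groups follow the samples' own labels, which name the genotypes as in the hippocampus. A library number 5 occurs in the Dicer-deficient steady-state groups of both hippocampus and total brain, and whether it marks 1 mouse is not stated.

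Of the 82 genes that rose in the hippocampus, 61 were also called higher in total brain (74.4% of the 82, and 10.3% of the 595 called there) and 53 of 77 tested in the adult table (68.8% of them, 15.2% of the 348). Of the 43 that fell, 36 were called lower in total brain (83.7%, and 3.61% of the 996) and 17 of 36 tested in adults (47.2%, and 7.69% of the 221). Without total brain library 33, 65 of the 82 and 35 of 42 tested of the 43 were called in the same direction, with 124 of 124 of the same sign. With all libraries, in total brain 124 of the 125 had the same sign and 110 of 113 in the adult table. In limma 0 of the 125 were called in the opposite direction in either table, also at an unadjusted p under 0.05.

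Chst2 differed by 4.40 in hippocampus, 4.57 in total brain and 4.60 in adults, and was called in all 3. Nid2 differed by 2.73, 2.33 and 2.80, Upk1b by 2.60, 2.22 and 2.65, Ifi30 by 2.07, 2.16 and 2.39, and Prkcb by -1.96, -2.32 and -1.73, each called in all 3 tables. Siglecf differed by 3.16 and 2.52, and by 2.80 in the adult table, where the row with a RefSeq transcript of this gene bears the older symbol Siglec5. Lcn2 differed by 3.04 in hippocampus and 2.24 in total brain but by 0.02 in adults (adjusted p = 0.996). In total brain its value was at most 34.4 in the 6 steady-state libraries, and after LPS 208 to 640 in controls and 1415 to 2603 without Dicer. Cst7 differed by 2.19, 1.27 and -0.45 and passed only in the hippocampal table of the 3. In total brain at steady state Cst7 was 36.9, 99.2 and 44.8 in controls against 186, 15.2 and 17.4 without Dicer. After LPS it was 85.6 to 168 in total brain controls and 580 to 823 without Dicer, with no overlap. Without library 33 the total brain differences were 4.47 for Chst2, 2.57 for Nid2, 2.52 for Upk1b, 2.20 for Ifi30, -2.33 for Prkcb, 2.72 for Siglecf and 2.39 for Lcn2, all called, and 1.11 for Cst7, not called. The difference between tables was not tested for any gene.

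Ttr and Enpp2 were not called outside the hippocampus. Enpp2 differed by -1.51 in total brain (adjusted p = 0.110, limma) and -0.16 in adults (adjusted p = 0.926, limma). In total brain Enpp2 was 38.8, 342 and 1082 against 179, 246 and 39.5 at steady state, and 203 to 548 against 24.6 to 219 after LPS. Ttr differed by -1.06 in total brain (adjusted p = 0.362) and -0.49 in adults (adjusted p = 0.673), and its total brain values ran from 101 to 7664 within the steady-state controls. Apoe, which was not called at steady state in the hippocampus, was 1844 to 3211 in steady-state total brain controls and 536 to 692 without Dicer, and after LPS 1104 to 1741 against 158 to 311. In adults at steady state Apoe was not called (-0.48, adjusted p = 0.688, limma). In total brain Rps2 was 95.5, 90 and 253 against 162, 91.4 and 11.6 at steady state, then 233 to 546 against 13 to 106 after LPS. Without library 33 the total brain differences over both conditions were -2.28 for Apoe in place of -2.36, -2.64 for Rps2 in place of -2.62, and -1.01 for Ttr. The adult table lists Rps2 and Lag3 at 0 in all 7 libraries.

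**Figure D5:**
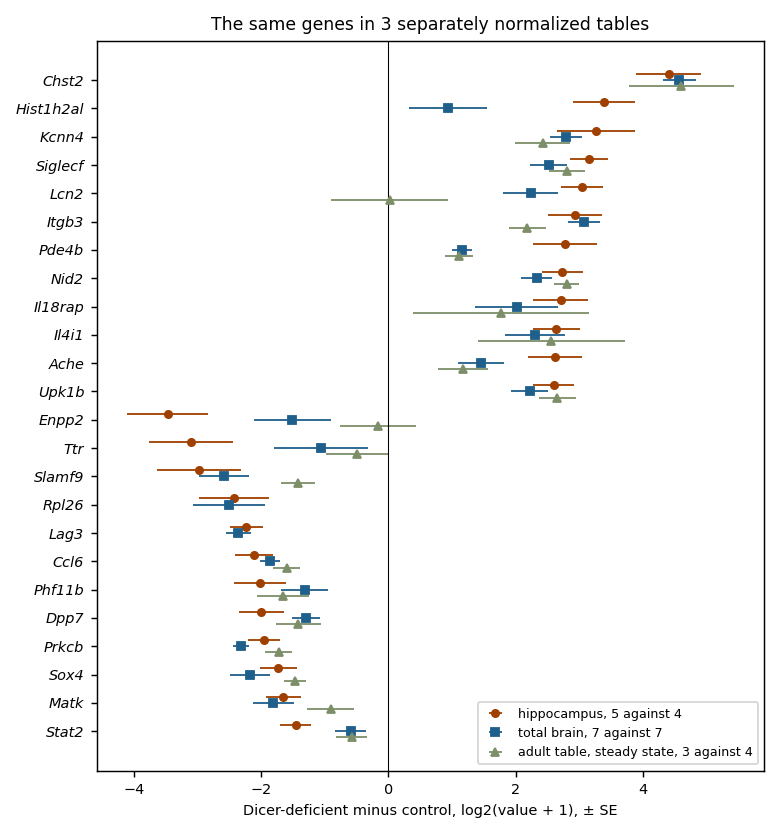
Log2 difference, Dicer-deficient minus control, ± SE for the 12 highest and 12 lowest named genes in hippocampus (circles), total brain (squares) and the adult table (triangles); a missing triangle means the gene was not tested there. Chst2, Nid2 and Upk1b have like differences in all 3 tables, while Lcn2 is near 0 in the adult table and Enpp2 and Ttr lie farthest from 0 in the hippocampus.

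Matches to microRNA seeds were counted in the 3′ UTRs of the called genes (GENCODE M21, 1 transcript per gene), as the exact complement of bases 2 to 8 on the transcript strand. A 3′ UTR of at least 50 bases was at hand for 76 of the 82 genes that rose, 38 of the 43 that fell and 10486 of all tested. For let-7a-5p the motif CTACCTC occurred in 9.21% of the genes that rose, 5.26% of those that fell and 9.57% of all. The motif AGCATTA of miR-155-5p occurred in 7.89%, 5.26% and 8.18%, AGTTCTC of miR-146a-5p in 11.8%, 10.5% and 11.1%, and ACACTAC of miR-142a-3p in 11.8%, 0% and 6.21%. Counting 12 microRNAs, chosen with the called genes known and before any match was counted, 57.9% of the genes that rose and 55.3% of those that fell held at least 1 match, beside 63.9% of all tested genes, with median UTR lengths of 1035, 758 and 967 bases. For the other 8 (miR-223-3p, miR-21a-5p, miR-29a-3p, miR-16-5p, miR-17-5p, miR-24-3p, miR-27a-3p and miR-125b-5p) the shares ran from 9.21% to 19.7% in genes that rose and from 6.89% to 22.6% in all. Single shares lay on both sides of the background, and the share with any match was below it in both directions. Of the genes that rose, 7 hold the let-7a match.

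Sites of 2 of these 7, Itgb3 and Hsf2bp, are shown because both genes were among the larger increases, with the match in capitals and 5′ to 3′ on the transcript strand (GRCm38, which is not the mm9 build of the deposited files).
Itgb3, chr11:104668418-104668441, plus strand, base 1287 of its 3331-base 3′ UTR: gtgcttgtgtgtatCTACCTCttc
Hsf2bp, chr17:31946440-31946463, minus strand, base 154 of its 1834-base 3′ UTR: gatgggtcagcatcCTACCTCttc
Hsf2bp, a partner of a heat shock factor, was 30.2 and 1.57 against 240, 346 and 408, and 1.63 and 7.62 against 19.4 and 76.0 after LPS (4.22 ± 0.80, adjusted p = 0.0156). Nid2, on a list of genes known as let-7 targets, held no match to these letters in the transcript used. That list had 1 of 23 genes called, Nid2, with 17 positive and a median of 0.26. Myc, another of its members, was 96.7 and 121 against 7.40, 2.49 and 13.8 at steady state and 200 and 670 against 153 and 290 after LPS, and did not pass over both conditions (-2.46 ± 0.64, adjusted p = 0.0832).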

How the data were processed

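Libraries were made by oligo dT capture from sorted microglia, per the labels' protocols. The submitters' processing notes name bcl2fastq, HISAT 0.1.5, SAMtools, HOMER, DESeq2 and mm9, with no role or order; annotation and treatment of molecular identifiers are not given in the sources used here. The deposited values are a signal, read counts that the authors scaled by a single number in each library. Undoing that scaling gave whole reads (within 0.1) for 100% of values above 0. These totals, 1817611 to 4143142 reads, bound precision and cover counting error only. No column of per-sample values was left unmatched.

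Values were tested as log2(value + 1) with limma 3.58.1 (R 4.3.3, variance trend, LPS as covariate). A gene entered the test if 4 or more hippocampal libraries (7 in total brain, 3 in adults) had a value of 1 or more, and calls had a Benjamini-Hochberg adjusted p under 0.05. Conditions and their interaction came from 1 mean per group. Counts of reads differed between replicates of every hippocampal group by far more than sampling noise (chi-square per degree of freedom 23 to 25.7), so each library counted once. No gene had 1 read in libraries 4 and 20, nor 2 reads in library 5. edgeR 4.0.16 and DESeq2 1.42.0 on recovered reads, other pseudocounts (0.1, 5), filters, scalings, weights, covariates and left-out libraries were alternatives, and 3 more were chosen after seeing the data.

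Members and the 35 gene lists were chosen with earlier results of these data known. Named genes were Dicer1, the 12 highest and 12 lowest called genes at or above the median level without overlap within a condition, the 3 smallest p of each list, and 5 for the interaction; not all are named. The procedure was tested on simulated data.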

Additional observations from a re-analysis of the deposited data

Results flagged for a closer look

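The effect of Dicer loss differed between the conditions for 2 genes by limma's interaction test over the 9 hippocampal libraries. For Apoe the difference after LPS minus that at steady state was -4.16 ± 0.38 (log2, adjusted p = 0.000371, limma), with both Dicer-deficient LPS libraries (97.2 and 186) below all 7 others. For Rps2 it was -4.77 ± 0.61 (adjusted p = 0.0109, limma), again with both Dicer-deficient LPS libraries (15.3 and 20.2) below the rest. The count of such genes ran from 1 to 7 when 1 library was left out, with 1 without Dicer-deficient library 5 and 7 without Dicer-deficient library 20. Outliers within a group were not looked for, since the hippocampal groups hold 2 or 3 libraries.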

How the results depend on the processing

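No call of the genotype effect over both conditions changed its sign under any alternative. Of the 125 genes, 0 passed under all 24 alternatives, the strictest being the libraries after LPS alone. The count was 213 with array quality weights, 365 with DESeq2, 56 with Xist as a covariate and 54 to 109 with 1 library left out. Under alternatives added after seeing the data it was 45 with the 3 Dicer-deficient steady-state libraries averaged into 1, 43 with the steady-state libraries alone and 7 with the LPS libraries alone. At steady state the count of 30 became 11 and 53 with pseudocounts of 0.1 and 5, 17 with no filter, 212 with DESeq2 and 5 to 48 with 1 library left out. It was 9 without control library 2, and 15, 5 and 14 without Dicer-deficient library 4, 5 and 6, and 48 without either LPS control. After LPS the count of 51 became 210 with DESeq2 and 19 to 59 with 1 library left out, with 19 without Dicer-deficient library 18. The interaction count of 2 became 34 with DESeq2 and 1 to 7 with 1 library left out. With 1 library left out, total brain gave 1146 to 1668 calls and adults 344 to 634. Causes of these changes were not tested. Few libraries and 1817611 to 4143142 reads limit genes with few reads.

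The hippocampal genotypes share no library number, so no pairing could be fitted there. In the adult table, where controls and Dicer-deficient libraries share numbers 1 to 3 with no stated pairing, the replicate block gave 371 calls in place of 569.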
